A study of Mus musculus with 24 samples.

Results

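Long intergenic noncoding RNAs (lincRNAs), transcripts from between the protein-coding genes that are not read into protein, were examined in the medial prefrontal cortex (mPFC) of 24 mice. They were chosen by the gene type given in the deposited table and by a mean of 50 normalized counts or more over the 24 mice of the 4 groups. The table held 15456 genes, of which 467 had the type lincRNA, and 118 of these reached that mean. RefSeq types some of the 118 as protein coding, among them 6330403K07Rik, D930016D06Rik, Gm37494, 1810058I24Rik, Dbpht2, Gm46430, Gm32856 and Tmem250-ps. It types Gm17322 as a pseudogene and 4632415L05Rik as a transcribed pseudogene. The choice rested on the level of each gene, so the levels are described without a test. The rule itself used no difference between groups, but it was set with earlier results of these data known. The members nearest the limit were A330074K22Rik with a mean of 52.7 normalized counts, Gm15728 with 52.5 and Gm15706 with 51.0. Just below it lay Gm26507 with 49.8, Gm16001 with 49.5 and Gm20063 with 49.2.

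The study asked whether a gut bacterium alters what an antidepressant does in the brain, and RNA was sequenced from 6 mice in each of 4 groups, with 1 library per mouse. All mice were BALB/C males at postnatal week 11. Controls are labelled as having had no treatment, and the methods state that controls received PBS. The duloxetine group was injected daily with duloxetine, which blocks the reuptake of serotonin and noradrenaline. The *R. flavefaciens* group was given live *Ruminococcus flavefaciens*, a fibre-degrading gut bacterium, by gavage. The combined-treatment group was given both. Between 12811413 and 15607343 reads per mouse were recovered from the deposited values. The comparisons with control share the same 6 control mice, and those of the combined treatment share its 6 mice.

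LincRNAs act as RNA. Some stay in the nucleus, where they help to build speckles and paraspeckles or regulate the genes around them. Others reach the cytoplasm and bind proteins or microRNAs. Several are the precursors from which microRNAs or small nucleolar RNAs (snoRNAs) are cut. Many are made in neurons more than in other cells, and the brain expresses a larger choice of them than most tissues. For most lincRNAs no function is known. The members were grouped by lists of names, which left 99 of the 118 in a group of clone or model names, among them BC1, Norad, Cyrano and Gm3764 described below. The lists held the 2 transcripts Meg3 and Mirg of the imprinted Dlk1-Dio3 cluster, the 3 nuclear RNAs Malat1, Neat1 and Miat, 4 microRNA hosts (Mir124a-1hg, Mir124-2hg, Mir9-3hg and C130071C03Rik), 3 snoRNA hosts and 7 other named genes.

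The summed normalized counts of 5 excitatory neuron genes ran from 76306 to 91414 over the mice, with Camk2a the most abundant. These genes mark neurons of the whole cortex and do not tell mPFC from its other areas. Mouse 8_4 of the *R. flavefaciens* group stood apart. Its 3 measured choroid plexus genes (Ttr, Kl and Clic6) summed to 791 normalized counts, against 25.5 to 152 in the other 23 mice, and its 6 striatal genes to 4719.9. Combined-treatment mouse 11_4 had 2748 for the striatal genes, and the remaining 22 mice had 1113 to 2023. Where leaving out 1 of these mice changed a call in a comparison described for a lincRNA, the value without it is given. The part of such tissue in the lincRNA values was not tested.

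Sequences are shown for the most abundant lincRNA, for the binding motifs that distinguish the third and the fourth, and for the microRNAs cut from 2 members whose levels are described below. AC161763.1, at chr7:144914470-144914637 (plus strand, GRCm38), is the gene of BC1, which RefSeq places at the same start. BC1 is made by RNA polymerase III, travels into dendrites and represses translation there. RefSeq ends BC1 at base 144914623, with a length of 154 bases, before the end of AC161763.1. The 168 bases of AC161763.1 have runs of A inside the transcript, shown as capitals where 4 or more A follow each other.
AC161763.1 (BC1): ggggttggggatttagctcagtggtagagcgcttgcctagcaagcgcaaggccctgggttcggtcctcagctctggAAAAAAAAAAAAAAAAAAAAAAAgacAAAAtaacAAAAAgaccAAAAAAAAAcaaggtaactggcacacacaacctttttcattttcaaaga
The third most abundant, 2900097C17Rik, is Norad in RefSeq, an RNA known to bind Pumilio proteins. Its longest transcript of 4915 bases holds the Pumilio motif TGTANATA 11 times on the transcribed strand, and 2 of these lie next to each other (bases 2436 to 2464 of the transcript, motifs in capitals).
2900097C17Rik (Norad): ctatgcTGTATATAtTGTACATActggac
The motif occurred at least once in the longest transcript of 37 of the 118 lincRNAs (31.4 percent). The only other member with more than 6 matches was Gm7292 with 9, and 85.9 percent of its stretches of 31 bases also occur in 2900097C17Rik, so reads may have been split between the pair. The fourth, 1700020I14Rik, is Oip5os1 or Cyrano in RefSeq, known for a site that pairs with miR-7 over nearly its whole length. That site was found at bases 2930 to 2959 of its longest transcript. Capitals mark a stretch of 13 bases complementary to miR-7a-5p and the 7 bases that pair with its seed. In the microRNA sequences, from RefSeq (GRCm38.p6), capitals mark the seed (bases 2 to 8).
1700020I14Rik (Cyrano) site: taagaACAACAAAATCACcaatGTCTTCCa
mmu-miR-7a-5p: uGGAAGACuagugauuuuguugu
mmu-miR-9-5p: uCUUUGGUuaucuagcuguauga
mmu-miR-9-3p: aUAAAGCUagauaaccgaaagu
mmu-miR-138-5p: aGCUGGUGuugugaaucaggccg
Gm3764 holds the hairpin of miR-9-5p (chr3:88215613-88215635) and miR-9-3p (chr3:88215652-88215673), and C78859 that of miR-138-5p (chr8:94324312-94324334), all on the plus strand and on the strand of the lincRNA. By the RefSeq positions used here, 11 of the 118 lincRNAs held a microRNA hairpin on their own strand. Mir124a-1hg and Mir124-2hg, hosts of miR-124 by name, are not in that count. Mirg held 14 hairpins and A230057D06Rik 7.

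A few abundant RNAs made up most of the lincRNA signal. BC1 had a mean of 22167 normalized counts over the 24 mice, Meg3 19188, 2900097C17Rik 18186, 1700020I14Rik 9989 and Malat1 7826. These 5 held 72.6 percent of the normalized counts of the 118 lincRNAs, and BC1 alone held 20.8 percent. Of the members, 10 had a mean above 1000, 33 a mean of 200 to 1000 and 75 a mean of 50 to 200, with a median of 125. Per 1000 exon bases BC1 stood at 131948 normalized counts, by the 168 bases of AC161763.1. Next came 2900097C17Rik at 3700.2, and the median member stood at 43.9.

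**Figure D1:**
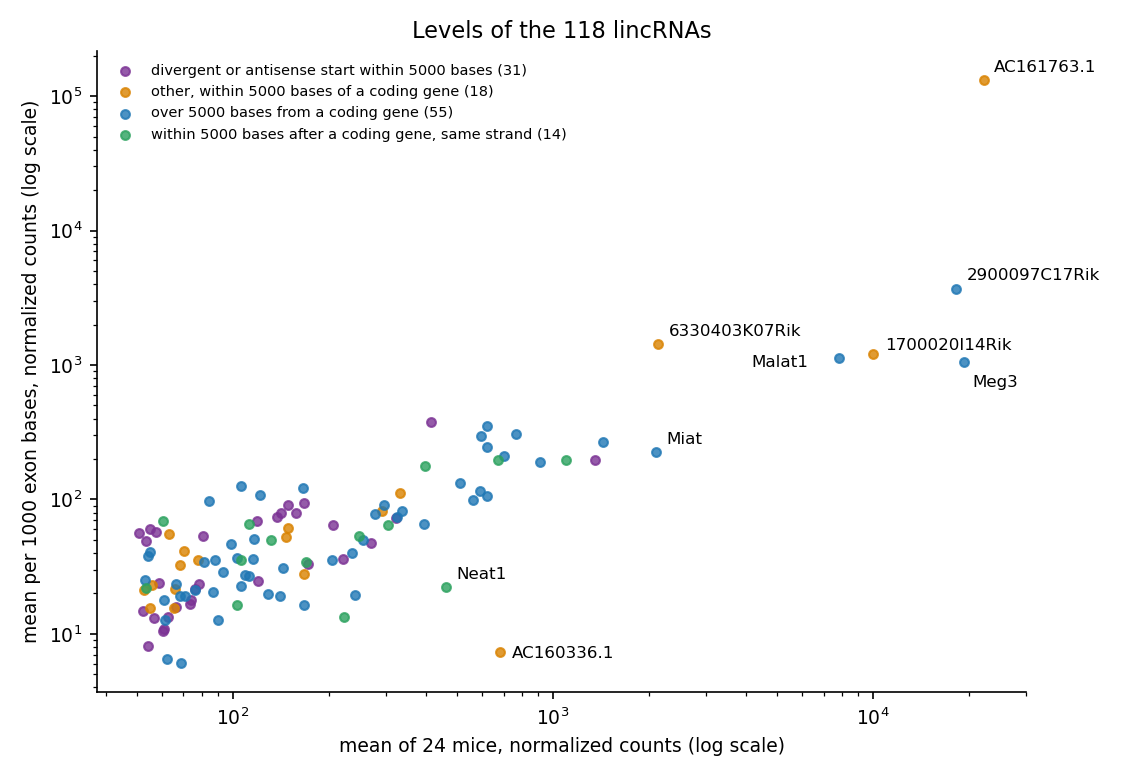
Levels of the 118 lincRNAs. Each point is 1 lincRNA, with its mean normalized count over 24 mice on the horizontal axis and the same mean per 1000 exon bases on the vertical axis (both log scales), coloured by its position relative to coding genes. BC1 (AC161763.1) lies highest on both axes, and AC160336.1, with its long exon, is low per length for its count.

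The spread between mice of a group differed widely between lincRNAs. The coefficient of variation within groups had a median of 14.4 percent. The steadiest were 2900097C17Rik with 4.13 percent, Gm20300 with 5.3 percent and AC160336.1 with 5.8 percent. The most variable were Neat1 with 32.1 percent, BC1 with 27.9 percent and AI480526 with 27.4 percent. Abundant RNAs stood at both ends of this order. Several well known noncoding genes of the table were not among the members because they carry another gene type, among them Rian with a mean of 7638 normalized counts, Peg13 with 4888 and Tug1 with 1435, and Jpx (31.4) and Epb41l4aos (34.9) were lincRNAs below the limit.

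Single lincRNAs passed the threshold in 2 of the 8 comparisons. The test was limma on log2(normalized count + 1), run over all 14974 genes whose mean reached 10 normalized counts, with Benjamini-Hochberg adjustment over these genes in each comparison. Between the combined treatment and *R. flavefaciens* alone 5 lincRNAs rose and none fell, where 2.23 percent of all genes passed the threshold. For duloxetine averaged over mice with and without the bacterium 4 rose and none fell, where 1.03 percent of all genes passed. No lincRNA passed for *R. flavefaciens* averaged over duloxetine (0.0267 percent of all genes), for *R. flavefaciens* against control (0.0267 percent), for both treatments against control (0.1 percent), for duloxetine against control, for both treatments against duloxetine or for the interaction (0 percent of genes in each of the last 3). For those 6 comparisons edgeR called 0 lincRNAs in each, where it called 0.0267 percent of all genes in both *R. flavefaciens* comparisons, 0.114 percent for both treatments against control and 0 percent in the last 3. DESeq2 called 0 lincRNAs in the last 3, where it called 0.00668 percent of all genes for duloxetine against control and for both treatments against duloxetine, and 0 percent for the interaction. In the others DESeq2 called 4 lincRNAs for *R. flavefaciens* against control (3.32 percent of all genes), 4 for both treatments against control (1.45 percent) and 1 for *R. flavefaciens* averaged over duloxetine (2.41 percent).

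As a set of values, lincRNAs were tilted upwards wherever mice given duloxetine were compared with mice not given it. In the combined treatment against *R. flavefaciens*, 36 of 118 lincRNAs (30.5 percent) lay higher and 3 (2.54 percent) lower at an unadjusted p under 0.05 in limma, against 9.76 and 9.9 percent of all genes tested. Their median log2 fold change was 0.14, with quartiles of 0.00 and 0.25, where the median of all genes was within 0.01 of 0 in this and every other comparison. In the combined treatment against control, 29 (24.6 percent) were higher and 2 (1.69 percent) lower, against 8.08 and 8.73 percent of all genes, with a median of 0.11 that was 0.061 after a trend on transcript length was removed, 0.072 after quantile normalization and 0.068 for lincRNAs with a mean of at least 200. For duloxetine averaged over the bacterium, 32 (27.1 percent) were higher and 2 (1.69 percent) lower, against 7.44 and 7.49 percent of all genes, with a median of 0.10. In these 3 comparisons the share of higher lincRNAs was more than 3 times that of all genes.

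*R. flavefaciens* alone against control gave no such tilt. In duloxetine against control 9 lincRNAs (7.63 percent) were higher and 1 (0.847 percent) lower, against 2.2 and 1.63 percent of all genes, and the median was 0.05 (0.035 with the length trend removed and 0.078 without mouse 5_1), with 85 of 118 values above 0, so the share of higher lincRNAs again exceeded that of all genes by more than 3 times. In *R. flavefaciens* against control 9 (7.63 percent) were higher and 10 (8.47 percent) lower, which is below the 8.86 and 10.8 percent of all genes, and the median was -0.02, between -0.047 and 0.0025 when 1 mouse was left out. For the bacterium averaged over duloxetine 9 and 4 lincRNAs were higher and lower (7.63 and 3.39 percent), against 7.68 and 10.4 percent. In both treatments against duloxetine the counts were 11 and 1 (9.32 and 0.847 percent), against 3.02 and 2.88 percent, again a higher share of lincRNAs than of all genes. For the interaction they were 12 and 4 (10.2 and 3.39 percent), against 3.86 and 3.67 percent. The interaction asks whether duloxetine acts differently with the bacterium, and no single lincRNA passed it, the smallest adjusted p in limma being 0.639.

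**Figure D2:**
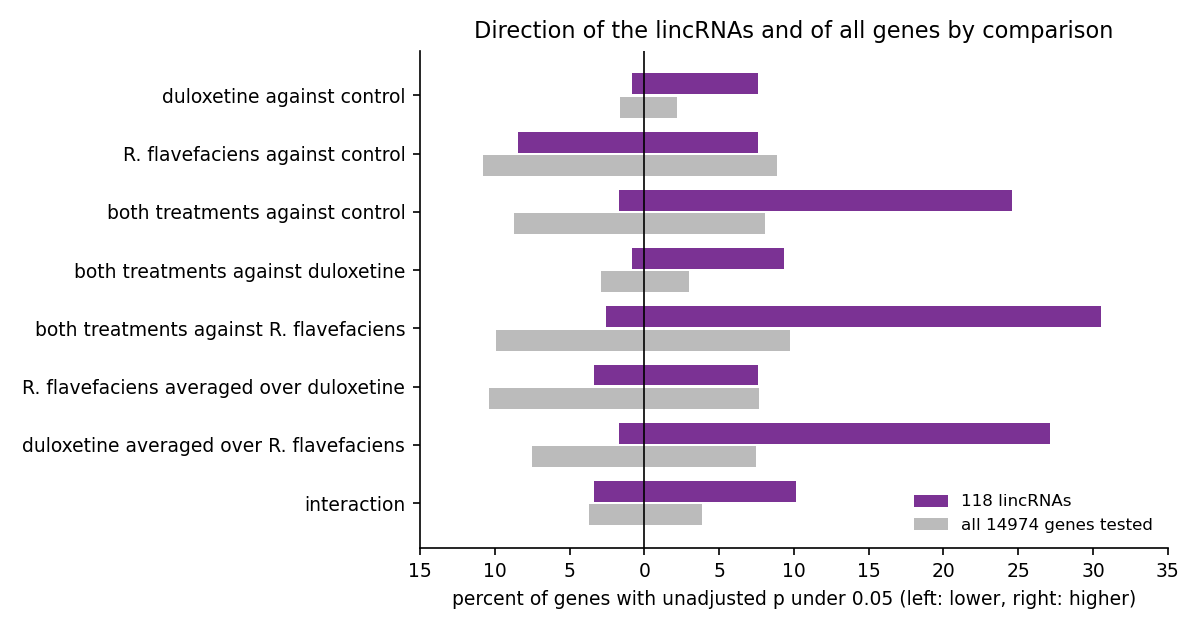
LincRNAs at an unadjusted p under 0.05 beside all genes, by comparison. Bars give the percent of the 118 lincRNAs and of all 14974 genes tested that were higher or lower. In the combined treatment against *R. flavefaciens*, 30.5 percent of lincRNAs lay higher, against 9.76 percent of all genes.

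The shift was also seen in the single mice. The mean of the 118 log2 values, each centred on its own mean over all mice, ran from -0.10 to 0.02 in control mice, from -0.09 to 0.08 in duloxetine mice, from -0.11 to 0.02 in *R. flavefaciens* mice and from 0.05 to 0.15 in combined-treatment mice. The combined-treatment mice lay above all control and all *R. flavefaciens* mice and overlapped the duloxetine mice. LincRNAs took 0.674 ± 0.0268 percent (SD, n = 6) of all normalized counts in controls, 0.746 ± 0.0764 percent in duloxetine mice, 0.758 ± 0.123 percent in *R. flavefaciens* mice and 0.844 ± 0.0708 percent in combined-treatment mice. Without BC1 these shares were 0.568 ± 0.0293 percent, 0.601 ± 0.0636 percent, 0.567 ± 0.0695 percent and 0.656 ± 0.0424 percent, so the higher share of the *R. flavefaciens* mice was held by BC1 alone.

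Other noncoding gene types moved in the same direction. Among genes with the same minimum mean, the median log2 fold change of the combined treatment against *R. flavefaciens* was 0.11 for 56 TEC genes (models still to be verified experimentally), 0.09 for 48 antisense RNAs, 0.10 for 68 processed transcripts and -0.01 for 11586 protein-coding genes. Low coding genes also tilted upwards, so genes of like level were set side by side. With a mean of 50 to 200 the median was 0.18 for 75 lincRNAs and 0.02 for 3069 coding genes, and 0.14 and 0.05 in both treatments against control. Coding genes with a mean of 10 to 50 were at 0.07 and 0.11 in these comparisons. The share at an unadjusted p under 0.05 and higher was 28.6, 18.8, 26.5 and 8.66 percent in this order, against 30.5 percent of the lincRNAs. Across the 24 mice, the mean lincRNA value followed that of the other noncoding types with a within-group Pearson r of 0.94, in values that share libraries and scaling. The direction of the lincRNA shift was thus shared by the other noncoding types.

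Depth, length and cell type markers were set beside that shift. The recovered reads averaged 13716312 in control, 13823354 in *R. flavefaciens*, 14518056 in duloxetine and 14767515 in combined-treatment mice, so the groups given duloxetine were sequenced more deeply. Within groups the mean lincRNA value had a Pearson r of -0.35 with the recovered reads over 24 mice, and 0.34 when group means were kept. Log2 fold changes of the 118 lincRNAs had a Spearman rho of 0.39 with their exon length in the combined treatment against *R. flavefaciens*, and of -0.37 in *R. flavefaciens* against control. These contrasts share the *R. flavefaciens* mice. The score of the excitatory neuron list ran against the mean lincRNA value within groups (r = -0.59), as did that of the upper layers (-0.38). The male list, of 4 genes led by Ddx3y, had 0.42 within groups and 0.61 over the 24 mice, all of them males, and the choroid plexus list 0.42 within groups. The other 8 lists measured in these mice lay between -0.19 and 0.36 within groups. In the marker lists measured, no gene was called for the combined treatment against control or for duloxetine averaged over the bacterium. For the combined treatment against *R. flavefaciens* 1 was called, of the male list. The part of depth, length or cell makeup in the lincRNA values was not tested, and in bulk tissue a change in the number of cells of a type and a change of RNA per cell cannot be told apart.

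BC1 was the most abundant lincRNA and had the smallest p-value of the 118 in both comparisons of bacterium-treated mice with controls. Its values were 14022 to 16378 normalized counts (median 14970.4) in control mice, 15175 to 29078 (median 20115) in duloxetine mice, 19956 to 45879 (median 24243) in *R. flavefaciens* mice and 19489 to 35014 (median 27035) in combined-treatment mice. All 6 *R. flavefaciens* and all 6 combined-treatment mice lay above the highest control, while the duloxetine mice overlapped every group. The sum of 5 blood genes, with Hbb-bs the most abundant, was 349 ± 65.7 (SD, n = 6) normalized counts in control, 462 ± 265 in duloxetine, 598 ± 204 in *R. flavefaciens* and 633 ± 351 in combined-treatment mice. Duloxetine mouse 6_3 and combined-treatment mouse 12_2 had the highest BC1 values of their groups and blood sums of 984 and 1062, and mouse 9_3, the highest for BC1, had 627. These 3 mice were also the highest of their groups for the summed microglial genes (4348, 5041 and 4501) and the summed endothelial and pericyte genes (4482, 5192 and 4442). The highest blood sums of the *R. flavefaciens* and combined-treatment groups were those of mice 8_4 (988) and 11_3 (1090). BC1 took 0.190 and 0.197 percent of all normalized counts in them, against 0.336 percent in 9_3 and 0.248 percent in 12_2. The 7 microglial genes, with Csf1r the most abundant, summed to 3566 ± 189.8 (SD, n = 6) in control, 3956 ± 351 in duloxetine, 4024 ± 311 in *R. flavefaciens* and 4135 ± 565 in combined-treatment mice, and the 7 endothelial and pericyte genes, with Flt1 the most abundant, to 3662 ± 222, 3919 ± 480.5, 3900.2 ± 302 and 3987 ± 663. The 3 measured choroid plexus genes summed to 51.9 ± 10.1, 68.3 ± 42.1, 191 ± 296 and 77.9 ± 41.5 in the same order of groups. The 5 genes listed for the deep cortical layers (Bcl11b, the most abundant, Fezf2, Foxp2, Rorb and Syt6) summed to 3845 ± 215, 3665 ± 352, 3274 ± 496 and 3454 ± 321. In that order, 6 inhibitory neuron genes, with Gad1 the most abundant, summed to 10051 ± 464, 10003 ± 356, 10927 ± 388 and 10460 ± 651. No gene of these lists passed in limma against control, and their part in the BC1 values was not tested. The log2 fold change against control was 0.76 ± 0.17 (SE) for *R. flavefaciens* (limma, adjusted p = 0.0687) and 0.78 ± 0.17 (SE) for the combined treatment (adjusted p = 0.0519), so neither passed the threshold. For the bacterium averaged over duloxetine the difference was 0.57 ± 0.12 (SE) in limma (adjusted p = 0.0891).

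Mouse 9_3 of the *R. flavefaciens* group held the highest BC1 value. Without it the difference of *R. flavefaciens* from control was 0.60 (limma, adjusted p = 0.132), and the combined treatment passed against control (adjusted p = 0.0077) as did the bacterium averaged over duloxetine (0.48, adjusted p = 0.0351). Of the 24 fits that left out 1 mouse, BC1 passed for *R. flavefaciens* against control in 3, without 8_3, 9_1 or 9_2 (limma, adjusted p = 0.0253, 0.0459 and 0.0334). For both treatments against control it passed in 4, without 6_3, 9_3, 12_3 or 12_4, and for the averaged bacterium in 4, without 6_3, 8_3, 9_2 or 9_3. Both treatments against control also passed when only the groups compared were fitted (limma, adjusted p = 0.00311), and just under the threshold (adjusted p = 0.031 to 0.0471) with a minimum mean of 50, quantile normalization, 75th percentile scaling, the first label number as a random block or the length trend removed. With that block *R. flavefaciens* against control passed too (adjusted p = 0.039). The block had a negative consensus correlation of -0.045, and the SE of this difference was 0.160 with it and 0.166 without it. With the length trend removed the averaged bacterium passed (0.47, limma, adjusted p = 0.0269). DESeq2 called BC1 in all 3 of these comparisons, with adjusted p of 0.0148 and 0.0199 against control and 0.0133 for the average, and edgeR called it in none (adjusted p = 0.0751, 0.0513 and 0.0976). BC1 ends without a poly(A) tail of its own, and these libraries were made by poly(A) selection. Of its stretches of 31 bases, 42 percent also occur in other genes, so part of its reads may have been counted elsewhere or not at all. Reads of those other genes may likewise have been counted as BC1. LTO1, the nearest coding gene, lies 463 bases downstream on the same strand.

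**Figure D3:**
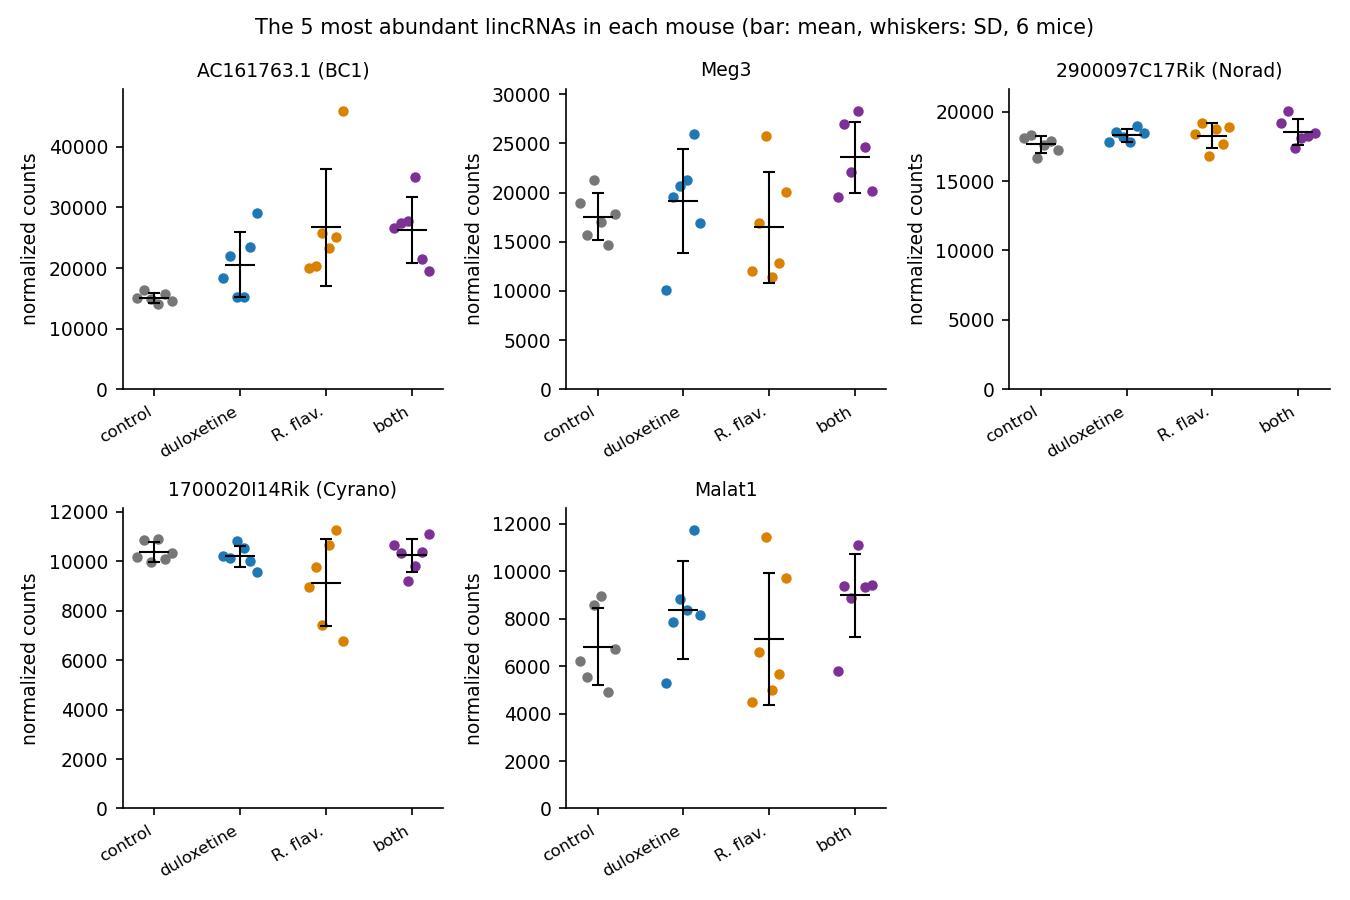
The 5 most abundant lincRNAs in every mouse. Each point is 1 mouse, the bar is the mean of 6 mice with whiskers for the SD, and the axis gives normalized counts from 0. For BC1 the *R. flavefaciens* and combined-treatment mice lie above all controls, and 2900097C17Rik lies between 16677 and 20026 in all 24 mice.

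The next abundant cytoplasmic RNAs differed in how steady they were. 2900097C17Rik had 16677 to 18334 normalized counts (median 17763) in control mice, 17780.2 to 18951 (median 18332) in duloxetine mice, 16788 to 19174 (median 18549) in *R. flavefaciens* mice and 17351 to 20026 (median 18333) in combined-treatment mice. All groups overlapped, and its largest log2 fold change over the 5 comparisons of groups was 0.07 ± 0.04 (SE), for both treatments against control (limma, adjusted p = 0.412). 1700020I14Rik, the RNA with the miR-7 site printed above, had 9944 to 10903 normalized counts (median 10263) in control mice, 9548 to 10799 (median 10155) in duloxetine mice, 6766 to 11237 (median 9363) in *R. flavefaciens* mice and 9183 to 11105 (median 10353) in combined-treatment mice. Its lowest values were in *R. flavefaciens* mice, with a log2 difference from control of -0.21 ± 0.08 (SE) (limma, adjusted p = 0.173), but its groups overlapped. The lowest of these mice were 9_3 and 8_4, and the difference was -0.13 without 9_3 (adjusted p = 0.509) and -0.15 without 8_4 (adjusted p = 0.343).

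The 5 lincRNAs that rose in the combined treatment against *R. flavefaciens* all carry clone or model names, and their functions are not known. Leaving out mouse 8_4 raised their number from 5 to 12, where 3.85 percent of all genes passed. These were 4 of the 5, without Gm10419, and 8 others, among them Meg3, Miat and the microRNA hosts Mir124a-1hg, Mir124-2hg and Gm3764, all higher. Leaving out 9_3 or 11_4 gave 4. Over all 24 omissions the number ran from 3 to 12, where 0.314 to 3.85 percent of all genes passed. When only the 2 groups compared entered the fit, no gene tested passed, and the 5 had adjusted p between 0.0752 and 0.156 (limma). edgeR called 5 lincRNAs in this comparison, all higher, where it called 2.18 percent of all genes, and DESeq2 called 8, of which 7 were higher, where it called 4.07 percent.

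AC165273.1, at chr13:53968944-53976666 (GRCm38), had 68.4 to 102 normalized counts (median 78.8) in control mice, 72.0 to 97.3 (median 88.8) in duloxetine mice, 49.3 to 85.4 (median 72.7) in *R. flavefaciens* mice and 89.3 to 129 (median 117) in combined-treatment mice. All 6 combined-treatment mice lay above all *R. flavefaciens* mice. The log2 fold change was 0.72 ± 0.13 (SE) (limma, adjusted p = 0.00837), and it was past the threshold in all 24 fits that left out 1 mouse. It also rose for duloxetine averaged over the bacterium, by 0.40 ± 0.09 (SE) (adjusted p = 0.0316), a call kept in 13 of 24 such fits, in which the adjusted p ran from 0.0137 to 0.0672. After removal of a trend on GC content that rise was 0.36 and did not pass (limma, adjusted p = 0.0521). Its interaction of 0.65 ± 0.18 (SE) had the smallest p-value of the 118 lincRNAs there (limma, adjusted p = 0.639). Its nearest coding gene is Drd1, the D1 dopamine receptor, 74517 bases away on the other strand, with a difference of 0.17, adjusted p = 0.701 in limma.

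AC165080.4, at chr9:121869496-121879936, had 51.6 to 72.7 normalized counts (median 59.8) in control mice, 65.0 to 73.0 (median 69.9) in duloxetine mice, 42.6 to 56.5 (median 48.1) in *R. flavefaciens* mice and 61.8 to 80.7 (median 71.4) in combined-treatment mice. The *R. flavefaciens* mice were lowest, and all of them lay below all combined-treatment and all duloxetine mice. It rose by 0.54 ± 0.10 (SE) in the combined treatment against *R. flavefaciens* (limma, adjusted p = 0.0114) and by 0.38 ± 0.07 (SE) for duloxetine averaged over the bacterium (adjusted p = 0.0123), and both calls were made in all 24 fits without 1 mouse. Against control the *R. flavefaciens* mice differed by -0.29 ± 0.10 (SE) (limma, adjusted p = 0.139). The nearest coding gene, Higd1a, 11134 bases away, showed -0.05, adjusted p = 0.517.

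4632404H12Rik, at chr3:89767511-89773240, starts 376 bases from the coding gene Ube2q1, which encodes a ubiquitin-conjugating enzyme and is read in the opposite direction. Its values were 232 to 279 normalized counts (median 263) in control mice, 253 to 308 (median 275) in duloxetine mice, 219 to 268 (median 235) in *R. flavefaciens* mice and 283 to 326 (median 299) in combined-treatment mice. Combined-treatment mice lay above all control and all *R. flavefaciens* mice. It rose by 0.33 ± 0.06 (SE) against *R. flavefaciens* (limma, adjusted p = 0.00943) and by 0.21 ± 0.04 (SE) for duloxetine averaged over the bacterium (adjusted p = 0.0205), both also in all 24 fits without 1 mouse. After removal of the GC trend the second was 0.17 and did not pass (limma, adjusted p = 0.0624). Against control the difference was 0.21 ± 0.06 (SE) (adjusted p = 0.123). Ube2q1 itself differed by -0.05, adjusted p = 0.515, in the comparison with *R. flavefaciens*.

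Gm21781 and Gm10419 were less firm. Gm21781, at chr10:4391587-4396424, had 77.3 to 139 normalized counts (median 101) in control mice, 73.9 to 157 (median 123) in duloxetine mice, 57.2 to 128 (median 95.7) in *R. flavefaciens* mice and 115 to 207 (median 166) in combined-treatment mice, and its groups overlapped. It rose by 0.74 ± 0.18 (SE) against *R. flavefaciens* (limma, adjusted p = 0.0311), a call made in 17 of 24 fits without 1 mouse. It was lost without mouse 11_4 (0.73, limma, adjusted p = 0.0527) and without 7_2, 9_1, 9_3, 11_3, 12_2 or 12_3 (adjusted p up to 0.0795). Zbtb2, 3479 bases away, showed -0.27, adjusted p = 0.143. For duloxetine averaged over the bacterium Gm21781 passed only with a mouse left out, such as 8_4 (0.52, limma, adjusted p = 0.0422). Gm10419, at chr5:108367769-108378239, had 1176 to 1406 normalized counts (median 1341) in control mice, 1294 to 1504 (median 1394) in duloxetine mice, 1160.0 to 1330.4 (median 1284) in *R. flavefaciens* mice and 1285 to 1531 (median 1488) in combined-treatment mice, and 5 of 6 combined-treatment mice exceeded all *R. flavefaciens* mice. It rose by 0.20 ± 0.05 (SE) (limma, adjusted p = 0.0449), in 8 of 24 fits without 1 mouse. Without mouse 8_4 it was 0.19 and did not pass (limma, adjusted p = 0.0569), and over all such fits the adjusted p ran from 0.0217 to 0.118. The call was also lost with the length trend removed (0.17, adjusted p = 0.0816) and with the GC trend removed (0.14, adjusted p = 0.13). Gm10419 overlaps Gm42517 on the other strand, and the library kit does not mark strand, so reads of the pair cannot be told apart where they overlap. Gm42517 differed by -0.20, adjusted p = 0.102. For duloxetine averaged over the bacterium Gm10419 did not pass with all mice, and it passed without 11_4 (0.17, limma, adjusted p = 0.0261).

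**Figure D4:**
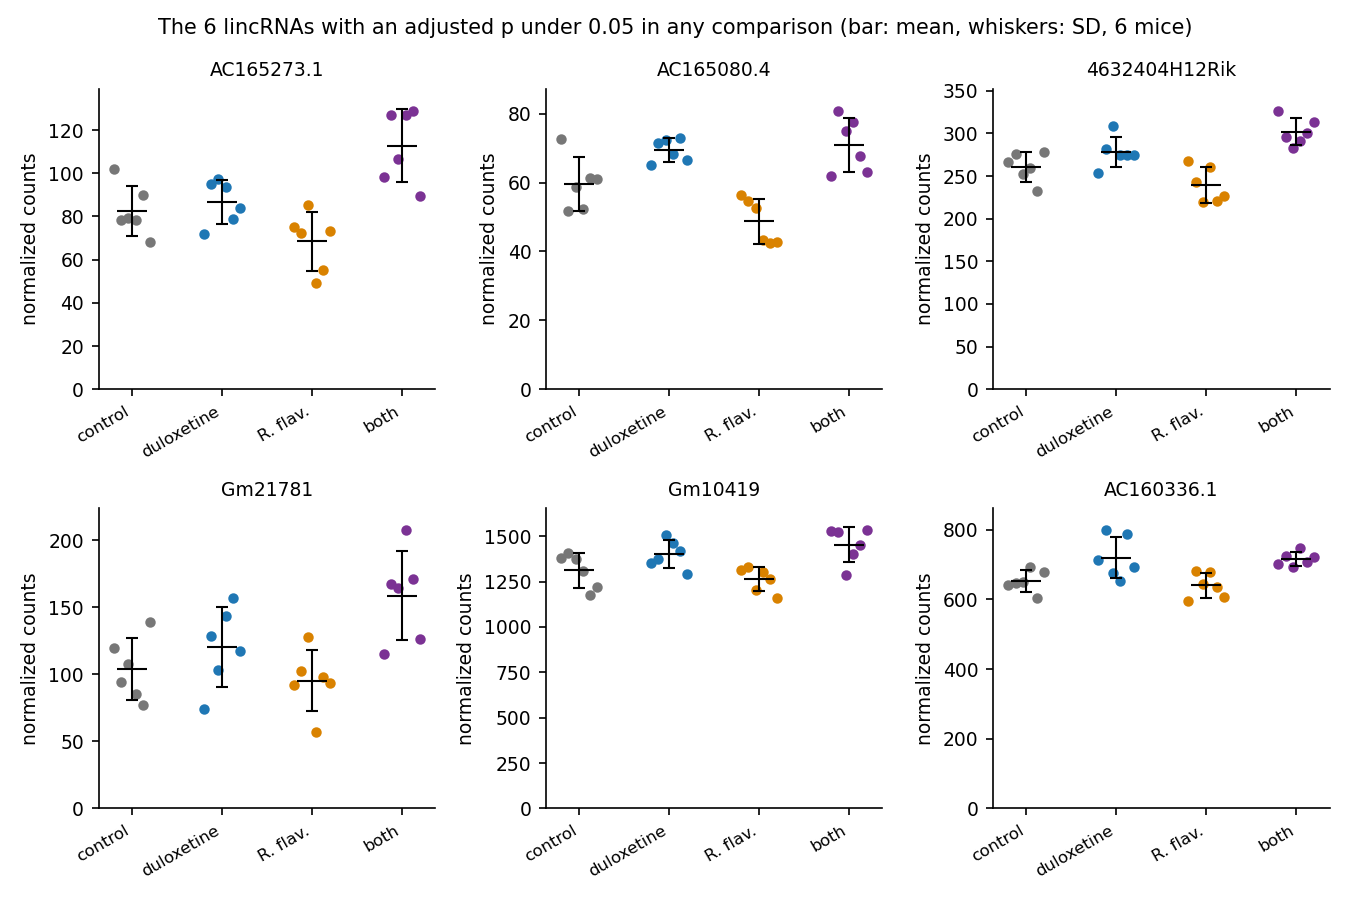
The 6 lincRNAs called in any comparison, in every mouse. Each point is 1 mouse, the bar is the mean of 6 mice with whiskers for the SD, and the axis gives normalized counts from 0. AC165273.1, AC165080.4, 4632404H12Rik and AC160336.1 have all combined-treatment mice above all *R. flavefaciens* mice.

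AC160336.1 was the remaining call for duloxetine averaged over the bacterium, with a rise of 0.15 ± 0.04 (SE) (limma, adjusted p = 0.039). Its values were 603 to 693 normalized counts (median 649) in control mice, 653 to 797 (median 703) in duloxetine mice, 594 to 682 (median 639.7) in *R. flavefaciens* mice and 691 to 747 (median 714) in combined-treatment mice, and all combined-treatment mice lay above all *R. flavefaciens* mice. It is annotated as a single exon of 93147 bases that overlaps coding genes, so its reads may come from them. The call was kept in 12 of 24 fits without 1 mouse, with an adjusted p of 0.0322 to 0.0816 in limma, and was lost when a trend of fold change on transcript length was removed (0.01, adjusted p = 0.971), and its difference between the combined treatment and *R. flavefaciens* turned from 0.16 to -0.07 there. After removal of a trend on GC content it was 0.10 (limma, adjusted p = 0.135), and of the 4 lincRNAs called for averaged duloxetine only AC165080.4 was left.

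Groups that did not overlap at all were found 9 times among the 118 lincRNAs and the 5 comparisons of groups. There were 5 in the combined treatment against *R. flavefaciens*, where 1.44 percent of all genes had no overlap, 3 in the combined treatment against control (2.04 percent), 1 in *R. flavefaciens* against control (1.62 percent), and none in duloxetine against control (0.334 percent) or both treatments against duloxetine (0.254 percent). The shares of lincRNAs were 4.24, 2.54 and 0.847 percent in the first 3. The 1 case that was lower was 2900079G21Rik, with 52.7 to 66.1 normalized counts (median 60.8) in *R. flavefaciens* mice and 33.5 to 49.4 (median 46.2) in combined-treatment mice. The difference was -0.43 ± 0.13 (SE) (limma, adjusted p = 0.0732). This lincRNA overlaps Arpp21 on the other strand, a coding gene with a mean of 5432 normalized counts, so its reads cannot be told from those of Arpp21.

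The nuclear RNAs Malat1, Neat1 and Miat passed the threshold in no comparison with all mice, and all 3 lay higher at an unadjusted p under 0.05 for duloxetine averaged over the bacterium. Malat1, the RNA of nuclear speckles, had 4910.5 to 8961 normalized counts (median 6477) in control mice, 5297 to 11708 (median 8249) in duloxetine mice, 4503 to 11431 (median 6141) in *R. flavefaciens* mice and 5777 to 11116 (median 9333) in combined-treatment mice, and all groups overlapped. The averaged difference was 0.34 ± 0.14 (SE) (limma, adjusted p = 0.256). Neat1, which builds paraspeckles, had 274 to 532 normalized counts (median 356) in control mice, 343 to 672 (median 535) in duloxetine mice, 223 to 729 (median 421) in *R. flavefaciens* mice and 343 to 762 (median 492) in combined-treatment mice, with overlap throughout. Its averaged difference was 0.43 ± 0.16 (SE) (adjusted p = 0.209), and in *R. flavefaciens* mice its highest value was that of mouse 8_4. Miat, a neuronal RNA kept in the nucleus, had 1746 to 2377 normalized counts (median 1900.2) in control mice, 1042 to 2619 (median 2123) in duloxetine mice, 1434 to 2591 (median 1672) in *R. flavefaciens* mice and 2168 to 3108 (median 2520.1) in combined-treatment mice. Its difference between the combined treatment and *R. flavefaciens* was 0.55 ± 0.17 (SE) (limma, adjusted p = 0.0711), and again mouse 8_4 was the highest of its group and overlapped the combined-treatment mice. Without mouse 8_4 it was 0.67 and passed (adjusted p = 0.025), as it did without duloxetine mouse 5_1 (adjusted p = 0.0231). For Neat1 and Malat1 the averaged differences without 8_4 were 0.52 and 0.42 and did not pass (limma, adjusted p = 0.074 and 0.103).

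Among 34 proteins of nuclear speckles and paraspeckles, 3 rose and none fell in the combined treatment against *R. flavefaciens*, where 2.23 percent of all genes passed, and 2 of them are described. At an unadjusted p under 0.05, 13 were higher and 1 lower, where 9.76 and 9.9 percent of all genes were. The median log2 fold change of the list was 0.04, against a median of all genes within 0.01 of 0. Srsf5, a splicing factor, rose by 0.62 ± 0.12 (limma, adjusted p = 0.0125). Srrm1, a protein of the splicing matrix, rose by 0.27 ± 0.07 (adjusted p = 0.0412). Sfpq and Nono, which bind Neat1 in paraspeckles, were at -0.10 and -0.05 (adjusted p = 0.31 and 0.481). For duloxetine averaged over the bacterium 2 of the 34 rose, among them Srsf5 (limma, adjusted p = 0.0304), where 1.03 percent of all genes passed. In the other 6 comparisons 0 of the 34 passed in limma. At an unadjusted p under 0.05, 9 were higher and 3 lower for both treatments against control, beside 8.08 and 8.73 percent of all genes. These counts were 0 and 3 for *R. flavefaciens* against control and 0 and 5 for the bacterium averaged over duloxetine. They were 1 and 0 for duloxetine against control, 6 and 1 for both treatments against duloxetine, and 6 and 0 for the interaction. The shares of all genes in these comparisons are given above.

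The maternally expressed transcripts of the imprinted Dlk1-Dio3 cluster did not pass with all mice. Meg3 had 14641 to 21267 normalized counts (median 17441) in control mice, 10141 to 25941 (median 20140.5) in duloxetine mice, 11378 to 25782 (median 14858) in *R. flavefaciens* mice and 19523 to 28265 (median 23337) in combined-treatment mice. The combined-treatment mice were high as a group but overlapped the others. The difference from *R. flavefaciens* was 0.57 ± 0.18 (SE) (limma, adjusted p = 0.0887) and that from control 0.42 ± 0.18 (SE) (adjusted p = 0.249). Without mouse 8_4, the highest of its group, the difference from *R. flavefaciens* was 0.71 and passed (adjusted p = 0.0247), as it did without duloxetine mouse 5_1 (adjusted p = 0.0456). Mirg, from which many microRNAs of the cluster are cut, had 95.3 to 146 normalized counts (median 118) in control mice, 71.0 to 175 (median 124) in duloxetine mice, 102 to 224 (median 129) in *R. flavefaciens* mice and 137 to 208 (median 157) in combined-treatment mice, and its largest averaged effect was that of the bacterium, at 0.40 ± 0.13 (SE) (limma, adjusted p = 0.127). None of the 5 protein-coding genes listed for the region of the cluster (Dlk1, Rtl1, Dio3, Begain and Wars) passed in any of the 8 comparisons in limma. In that list 1 was lower at an unadjusted p under 0.05, for averaged duloxetine. Rtl1, the coding gene nearest to Meg3, had a within-group r of 0.77 with it over the 24 mice. The library kit does not mark strand, so reads of any transcript on the other strand of Rtl1 cannot be told from its own.

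Precursors of the neuronal microRNAs miR-124, miR-9 and miR-138 were followed through their host transcripts, which do not measure the mature microRNA. Mir124a-1hg, a host of miR-124, had 711 to 1009.8 normalized counts (median 811) in control mice, 474 to 1142 (median 906) in duloxetine mice, 593 to 1261 (median 774) in *R. flavefaciens* mice and 966 to 1311 (median 1113) in combined-treatment mice. Its difference between the combined treatment and *R. flavefaciens* was 0.49 ± 0.17 (SE) (limma, adjusted p = 0.108) and that from control 0.44 ± 0.17 (SE) (adjusted p = 0.201). The second host, Mir124-2hg, differed by 0.24 ± 0.09 (SE) from *R. flavefaciens* (adjusted p = 0.14) and by 0.06 ± 0.09 (SE) from control (adjusted p = 0.76). Both differences from *R. flavefaciens* were above 0, with overlapping groups. Without mouse 8_4 that of Mir124a-1hg was 0.62 (limma, adjusted p = 0.0283) and that of Mir124-2hg 0.30 (adjusted p = 0.0481), and both passed. Mir124a-1hg also passed without duloxetine mouse 5_1 (adjusted p = 0.0489) and Mir124-2hg without combined-treatment mouse 12_4 (adjusted p = 0.0381).

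The 3 hosts of miR-9, whose mature sequence is printed above, did not pass in the combined treatment against *R. flavefaciens* with all mice, and differences between the hosts were not tested. Gm3764, which holds Mir9-1, had 469.6 to 647 normalized counts (median 581) in control mice, 439 to 700.2 (median 642) in duloxetine mice, 379 to 791 (median 533) in *R. flavefaciens* mice and 600.0 to 882 (median 752) in combined-treatment mice and a difference of 0.45 ± 0.14 (SE) between the combined treatment and *R. flavefaciens* (limma, adjusted p = 0.0765). It passed without mouse 8_4 (0.56, adjusted p = 0.0212) and without combined-treatment mouse 12_4 (0.51, adjusted p = 0.0481). C130071C03Rik, which holds Mir9-2, was at -0.00 ± 0.06 (SE) (adjusted p = 0.99), and Mir9-3hg at 0.20 ± 0.12 (SE) (adjusted p = 0.334). Within groups Gm3764 and Mir124a-1hg had a Pearson r of 0.83 over 24 mice, Gm3764 and C130071C03Rik 0.30 and Mir124a-1hg and Mir9-3hg -0.03. The pair of miR-124 hosts, Mir124a-1hg and Mir124-2hg, had 0.63. The r values of pairs from the same microRNA and of pairs from different ones overlapped, and all share libraries.

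C78859, which holds Mir138-2, had 123 to 149 normalized counts (median 141) in control mice, 73.9 to 244 (median 149.6) in duloxetine mice, 122 to 228 (median 139) in *R. flavefaciens* mice and 162 to 241 (median 226) in combined-treatment mice. All combined-treatment mice lay above all controls, with a log2 difference of 0.60 ± 0.18 (SE) (limma, adjusted p = 0.123). It passed against control in DESeq2 (adjusted p = 0.0389) and when only the 2 groups compared were fitted (limma, adjusted p = 0.016). The duloxetine mice spanned the range of all groups.

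**Figure D5:**
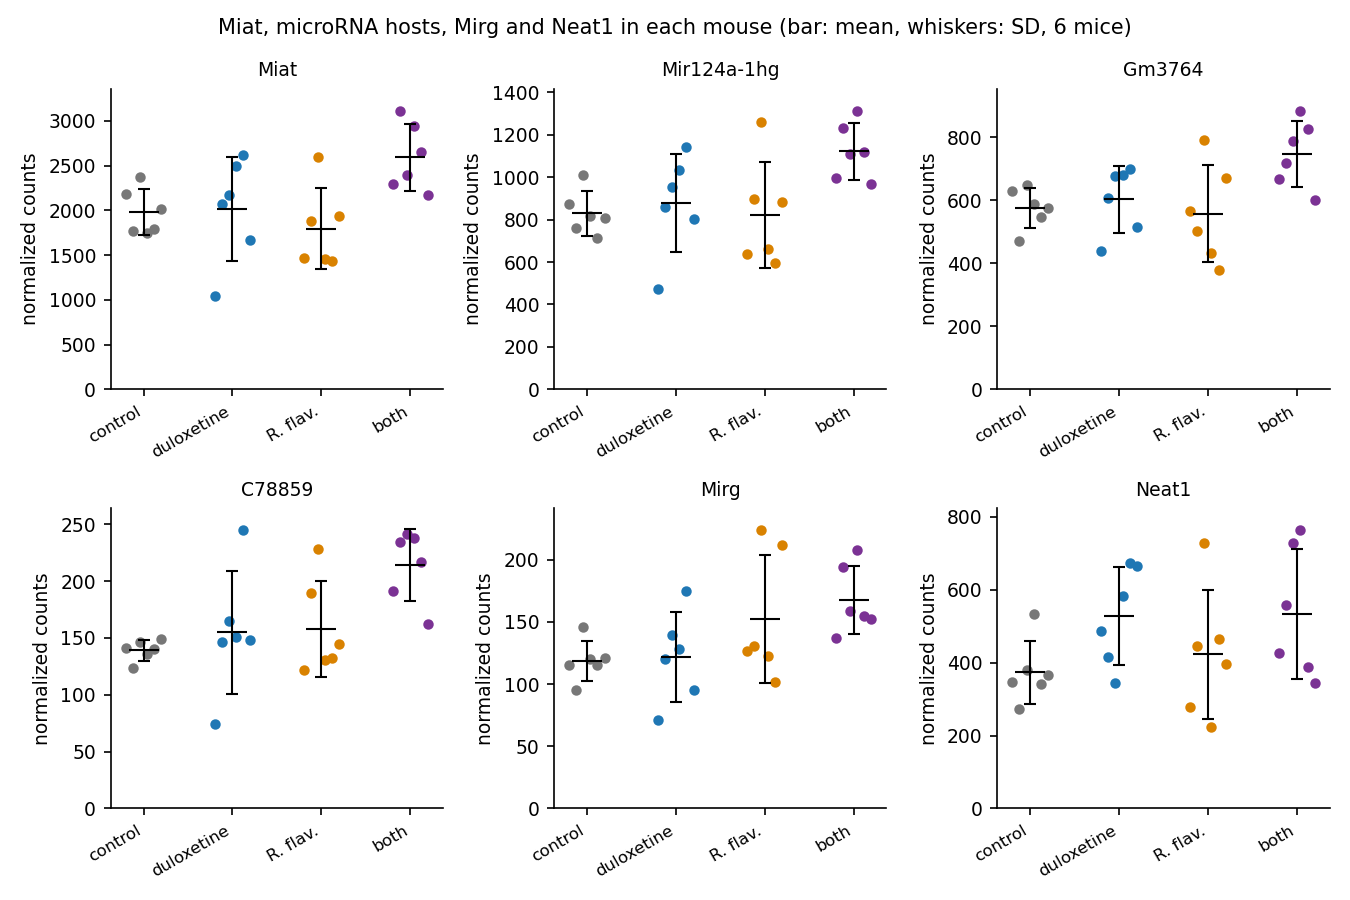
Miat, the microRNA hosts Mir124a-1hg, Gm3764 and C78859, Mirg and Neat1 in every mouse. Each point is 1 mouse, the bar is the mean of 6 mice with whiskers for the SD, and the axis gives normalized counts from 0. C78859 has all combined-treatment mice above all controls, and the groups of the other 5 overlap.

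The hosts of snoRNAs and the remaining named lincRNAs passed in no comparison. Snhg12 had a mean of 148 normalized counts, Snhg20 103 and Snhg6 62.9. Snhg20 was the only 1 of the 3 at an unadjusted p under 0.05 for both treatments against control, at 0.44 ± 0.18 (SE) (limma, adjusted p = 0.227). Pantr1, read divergently from the neuronal transcription factor gene Pou3f3, had 277 to 316 normalized counts (median 304) in control mice and 289 to 392 (median 351) in *R. flavefaciens* mice, a difference of 0.22 ± 0.07 (SE) (limma, adjusted p = 0.0891) with overlapping groups, which passed without mouse 8_3 (limma, adjusted p = 0.0301). Ftx, a lincRNA of the X-inactivation centre, had a mean of 166 and a difference of 0.44 ± 0.17 (SE) between the combined treatment and *R. flavefaciens* (limma, adjusted p = 0.146), which was 0.56 without mouse 8_4 (adjusted p = 0.0524). Pvt1, next to Myc, had a mean of 89.5, and its differences between groups lay between -0.05 and 0.15 on the log2 scale.

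For *R. flavefaciens* against control the lincRNAs nearest the threshold after BC1 pointed both ways. 3300002P13Rik had 352 to 426 normalized counts (median 382) in control mice and 381 to 491 (median 452) in *R. flavefaciens* mice, a difference of 0.21 ± 0.06 (SE) (limma, adjusted p = 0.0806) that passed in DESeq2 (adjusted p = 0.0316). Gm37233 had 84.1 to 132 normalized counts (median 113) in control mice and 38.7 to 104 (median 79.1) in *R. flavefaciens* mice, a difference of -0.56 ± 0.16 (SE) (limma, adjusted p = 0.0806). Both overlapped between the groups. Both passed without mouse 9_2 (limma, adjusted p = 0.0429 in each), and Gm37233 also without 8_3 (adjusted p = 0.0313). Gm28928, with a mean of 54.4, had the smallest p-value among the lincRNAs that were lower for the bacterium averaged over duloxetine, at -0.37 ± 0.12 (SE) (limma, adjusted p = 0.128).

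For duloxetine against control the smallest limma p-values belonged to Gm26809 and AC121567.1 among the higher ones. Gm26809 had 252 to 339.7 normalized counts (median 295) in control mice and 306 to 417 (median 371) in duloxetine mice, a difference of 0.29 ± 0.08 (SE). AC121567.1 had 74.0 to 101 normalized counts (median 90.1) in control mice and 90.7 to 143 (median 119) in duloxetine mice, a difference of 0.39 ± 0.12 (SE). The groups of both overlapped, and no gene of the table passed in limma in this comparison, where the smallest adjusted p of the 118 lincRNAs was 0.9996. Among the lower ones Gm26825 was at -0.18 ± 0.09 (SE), and 94.6 percent of its stretches of 31 bases occur in other genes. A330074K22Rik was at -0.22 ± 0.15 (SE). 6330403K07Rik, typed as protein coding in a later annotation, was the lower lincRNA with the smallest p-value in the combined treatment against *R. flavefaciens*, at -0.17 ± 0.05 (SE) (limma, adjusted p = 0.073), and it passed without mouse 9_2 (adjusted p = 0.031) and in DESeq2 (adjusted p = 0.0409).

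The shift was also described by the position of a lincRNA relative to coding genes. Of the 118, 55 lay more than 5000 bases from a coding gene, 31 started within 5000 bases of a coding gene in divergent or antisense orientation, 14 lay within 5000 bases after a coding gene on the same strand, and 18 lay otherwise within that distance. In the combined treatment against *R. flavefaciens* the median log2 fold changes of these classes were 0.17, 0.16, 0.12 and 0.13 in this order. In both treatments against control they were 0.08, 0.12, 0.16 and 0.15. No difference between the classes was tested.

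Over the mice, a block of lincRNAs moved together within groups. Meg3 was most alike to Mir124a-1hg (Pearson r = 0.97 over 24 mice after group means were taken off), Miat (0.96) and Mirg (0.91), and Miat to Mir124a-1hg (0.97). Malat1 was most alike to D930016D06Rik (0.90), which RefSeq types as protein coding, Snhg20 (0.87) and Meg3 (0.87). Neat1 reached at most 0.61, with A230057D06Rik. Such values were rare, since 35 of 6903 pairs of lincRNAs had an r of at least 0.8 and the median was 0.01. The points share libraries. Without mice 8_4 and 11_4 the r of Meg3 with Mir124a-1hg was 0.96, that of Malat1 with Meg3 0.84 and that of Neat1 with A230057D06Rik 0.46. Duloxetine mouse 6_2 was the highest of its group for 38 of the 118 lincRNAs and mouse 5_1 the lowest for 37. Mouse 8_4 was the highest of the *R. flavefaciens* mice for 32, mouse 12_2 the highest of the combined-treatment mice for 32, and among controls mouse 2_2 was highest for 32 and mouse 3_1 lowest for 33.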

How the data were processed

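Poly(A) RNA of 24 mice was sequenced in 1 library per mouse. Per the methods and the submitters' processing notes, the authors mapped reads with TopHat2 2.1.0 and Bowtie2 2.2.6 and normalized gene counts with DESeq2 1.18.1. The counting tool is not given in the sources used here. The labels name an older build, but the deposited gene positions match GRCm38, which the methods give. The deposited signal values are counts divided by 1 size factor per mouse, and 99.989 percent of 370875 non-zero values were whole multiples of a step per mouse (tolerance 0.0051), so reads could be recovered. The members, lists and tests were chosen with earlier results of these data known.

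The 14974 genes whose mean reached 10 were fitted on log2(normalized count + 1) in limma 3.58.1 (R 4.3.3, prior variance as a trend on level). Fold changes are on this scale, which understates those of low genes. All 4 groups entered 1 fit, tests were two-sided, and the threshold was an adjusted p of 0.05. The rule for naming took known lincRNAs, the 5 most abundant, the 2 higher and 2 lower with the smallest p-values in each comparison, all called or without overlap, those at the ends of level and spread, and those most alike to Malat1, Meg3, Neat1 and Miat, 42 in all. Gm3764 and Gm7292 lay outside it and were chosen after their values were seen. Likeness is the Pearson r of log2 values after group means were taken off. Positions and sequences came from GENCODE vM21, where all 118 lincRNAs were found, 111 at the same position and 114 with the same type, and from RefSeq (GRCm38.p6). A lincRNA's own stretches of 31 bases were looked up in the transcripts of all other genes. Alternatives were another pseudocount, other filters, quantile and 75th percentile scaling, a fit of only the groups compared, the first number of a mouse's label as a random block, DESeq2 1.42.0 and edgeR 4.0.16 on recovered reads, an adjusted p under 0.1, a higher minimum mean and leaving out each mouse. The removal of loess trends on transcript length and on GC content, and correlations without mice 8_4 and 11_4, were chosen after the data were seen. Figures were drawn with matplotlib 3.10.9 in Python 3.11.15. The values of 1 listed gene are not reported here. The scripts were tested on simulated data.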

Additional observations from a re-analysis of the deposited data

Results flagged for a closer look

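A single mouse lying apart from the other 5 of its group was looked for in 24 lincRNAs and 3 measures over all of them, which makes 108 sets of 6 mice. It was found in 2 of the 108 sets, a smaller share than the 1 in 20 that chance alone gives. BC1 (AC161763.1) had 45879 normalized counts in *R. flavefaciens* mouse 9_3, far above the rest of that group. Ftx had 215 normalized counts in *R. flavefaciens* mouse 8_4, the mouse with the high choroid plexus and striatal sums.

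The effect of *R. flavefaciens* on 6430584L05Rik, a lincRNA of unknown function, ran in opposite directions without and with duloxetine. Every *R. flavefaciens* mouse lay below the control mean, and every combined-treatment mouse lay above the mean of the duloxetine mice. The difference between the 2 effects was 0.46 on the log2 scale (limma interaction, adjusted p = 0.639), so it did not pass over all genes. Without mouse 8_4 this lincRNA passed in the combined treatment against *R. flavefaciens* (0.41, limma, adjusted p = 0.0438).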

How the results depend on the processing

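The median log2 fold changes of the 118 lincRNAs kept their sign under every alternative, except for *R. flavefaciens* averaged over duloxetine (-0.0045 to 0.033), and for *R. flavefaciens* against control without mouse 2_2, 7_2 or 9_1 (up to 0.0025). The median for both treatments against control was 0.061 when a trend on transcript length was removed. Counts of called lincRNAs moved more. For *R. flavefaciens* against control the count rose from 0 to 1 with the first label number as a random block (1.48 percent of all genes), to 4 in DESeq2 (3.32 percent) and to 6 at an adjusted p under 0.1 (3.87 percent). For both treatments against control it rose from 0 to 6 when only the groups compared were fitted (1.31 percent of all genes, against 0.1 percent) and to 4 in DESeq2 (1.45 percent). It was 1 with a minimum mean of 50, quantile normalization, 75th percentile scaling, the block, the length trend and an adjusted p under 0.1 (0.251, 0.12, 0.16, 0.394, 0.475 and 0.841 percent of all genes). For both treatments against *R. flavefaciens* it was 0 with only the groups compared (0 percent of all genes), 2 with members of a mean of at least 200, 8 in DESeq2 (4.07 percent), 9 with the block (3.56 percent) and 15 at an adjusted p under 0.1 (5.62 percent), against 5 (2.23 percent). For the bacterium averaged over duloxetine it was 1 in DESeq2, with the length trend removed and at an adjusted p under 0.1 (2.41, 0.0535 and 1.34 percent of all genes). For averaged duloxetine it was 1 with the GC trend removed (0.782 percent of all genes) and 2 with the higher minimum mean for members, against 4 (1.03 percent). Leaving out 1 mouse at a time gave 0 to 6 calls for *R. flavefaciens* against control, 0 to 1 for both treatments against control, 3 to 12 for both treatments against *R. flavefaciens*, 0 to 1 for the averaged bacterium and 2 to 6 for averaged duloxetine. The shares of all genes called in the same fits ran, in this order, from 0 to 4.11, 0.0334 to 1.03, 0.314 to 3.85, 0.00668 to 0.902 and 0.307 to 1.74 percent. AC160336.1 in both treatments against *R. flavefaciens* reversed to -0.073 with the length trend removed. Without BC1 the share of counts was 0.568 percent in controls, 0.601 percent in duloxetine mice, 0.567 percent in *R. flavefaciens* mice and 0.656 percent in combined-treatment mice. The causes of these changes were not tested. No paired analysis was possible because the labels give the 4 groups no replicate numbers in common, and mice with the same first label number had a consensus correlation of -0.045. Most lincRNAs had under 200 normalized counts per mouse, where counting error widens the spread, and a missed threshold does not show that levels were equal.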
